A study of Homo sapiens with 4 samples.

Results

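The replication-dependent histone genes lie in 4 gene clusters, and their response to liquiritigenin (Liq) was examined in ES2 cells. Members were all rows of the gene tables whose symbol begins with HIST1H, HIST2H, HIST3H or HIST4H, which gave 72 of 23228 genes. By protein class these are 6 genes of linker histone H1, 17 of H2A, 20 of H2B, 14 of H3 and 15 of H4, and by cluster 55 belong to HIST1, 13 to HIST2, 3 to HIST3 and 1 to HIST4. ES2 is a long-established line of human ovarian cancer cells. Liq is a plant flavanone used in the study as an agonist of estrogen receptor β (ERβ). The control group received vehicle and the Liq group received 100 μM Liq, both for 24 h, with 2 samples per group of the same line. Both groups were grown without phenol red in medium with charcoal-treated serum. The labels do not say whether the samples came from separate cultures, so p-values measure only the spread between these samples, which may be technical. The design covers 1 line, 1 dose and 1 time point.

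Core histones H2A, H2B, H3 and H4 form the protein spool of the nucleosome, and H1 binds the DNA between nucleosomes. Cluster genes supply most of the new histone protein during S phase, when DNA is copied, and their mRNAs are unusual in ending at a conserved stem-loop instead of a poly(A) tail. Stem-loop-binding protein recognises this structure. A minority of cluster genes also give polyadenylated transcripts, and histone genes outside the clusters encode replacement variants whose mRNAs are mostly polyadenylated. Methods that select poly(A) RNA therefore undercount the stem-loop mRNAs. The labels name a TruSeq RNA preparation in one place and a TruSeq total RNA guide in another, and whether poly(A) RNA was selected is not given in the sources used here.

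The stem-loop is the sequence that sets these mRNAs apart, so it is shown for the 2 members that changed and for 4 others described later. Each site has 26 bases of the GRCh37 genome in the sense of the gene, and capitals mark the 16 bases of the stem and loop. The sites lie at chr6:26123695-26123720, minus strand, for HIST1H2BC, at chr1:149857733-149857758, minus strand, for HIST2H2BE, at chr6:27114140-27114165, minus strand, for HIST1H2BK, at chr6:27806863-27806888, plus strand, for HIST1H2BN, at chr6:26031820-26031845, minus strand, for HIST1H3B, and at chr6:26205224-26205249, plus strand, for HIST1H4E.
HIST1H2BC: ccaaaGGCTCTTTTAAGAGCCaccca
HIST2H2BE: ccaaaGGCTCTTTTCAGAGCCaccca
HIST1H2BK: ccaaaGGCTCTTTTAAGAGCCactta
HIST1H2BN: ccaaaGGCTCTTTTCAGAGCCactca
HIST1H3B: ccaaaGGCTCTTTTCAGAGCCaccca
HIST1H4E: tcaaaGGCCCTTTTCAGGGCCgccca

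All 65 members with a coding GENCODE transcript held such a site in the 100 bases after the stop codon, counting any match with at most 3 mismatches to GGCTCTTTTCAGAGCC, the 16-base word shared by most of them. It was searched on the sense strand. Of 19829 other protein-coding genes, 18 held one, which is 0.0908%. The word was exact in 38 members, and it began 22 to 67 bases after the stop codon, with a median of 35. The variant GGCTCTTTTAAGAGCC was carried by 9 members, 4 of them among the genes tested here (HIST1H2BC, HIST1H2BD, HIST1H2BJ and HIST1H2BK). No H4 gene had the exact word. There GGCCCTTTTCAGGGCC was the main form, in 8 members, and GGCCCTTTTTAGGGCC was found in 4. The gene that fell most, HIST1H2BC, and the gene with the next call, HIST2H2BE, thus carried different loops. A match is a description of the letters and not evidence of processing.

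The 4 count tables held 34573053 to 48933893 reads on genes, so that 3 counts corresponded to 0.0598 to 0.0844 CPM, the counts scaled to library size. Intervals given for shares cover counting error only. Alignments to more than 1 place made up 35.6% to 36.2% of everything counted or tallied and were not counted on any gene. This bears on genes with near-identical copies such as histone genes. Whether a read entered that tally once or once per alignment was not checked, so it may not be a share of reads. The label was checked on marker genes. KRT7, KRT8, KRT18 and VIM had 871 to 312656 counts per sample, PAX8 had 12 to 49 and WT1 98 to 181, whereas the epithelial markers EPCAM and MUC16 had 0 to 3. Among markers of other cells, CD3E and HBA1 had no counts and PTPRC, HBB, CD14, PECAM1 and VWF had 11 or fewer per sample, while CDH5, an endothelial cadherin, had 1712 to 2239. The estrogen receptor genes ESR1 and ESR2 had 17 to 34 and 4 to 14 counts.

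Liq replicate 1 stood apart from the other 3 libraries in RMRP and RPPH1, a pair of short RNAs that largely lack a poly(A) tail. RMRP, the RNA of the ribonuclease that processes ribosomal and mitochondrial RNA, was at 3.19 and 3.02 CPM in the controls, 14.3 CPM in Liq replicate 1 and 2.89 CPM in Liq replicate 2. RPPH1, the RNA of ribonuclease P, was at 0.657, 0.721, 2.25 and 0.717 CPM in the same order. The summed CPM of 388 small nucleolar and Cajal body RNAs, at 129.7, 161, 164 and 149, did not set the same library apart, nor did MALAT1, a nuclear RNA without a poly(A) tail, at 84.9, 133.7, 150.9 and 111.2 CPM. These RNAs were chosen after the member values had been seen. The part of this difference between libraries in the results was not tested. The log2 fold changes of the called genes and the total of all members are given with and without Liq replicate 1. Sums by class are given for each sample.

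The cluster genes had very few counts in all 4 libraries. Whether poly(A) RNA was selected is not given, so the counts show what was recovered and not the level in the cells. Together the cluster genes had 937 and 801 counts in the controls and 830 and 853 in the Liq samples. This was 0.00221% of the counts on genes in control replicate 1 (Clopper-Pearson 95% interval 0.00207 to 0.00235), 0.00209% in control replicate 2 (0.00195 to 0.00224), 0.00240% in Liq replicate 1 (0.00224 to 0.00257) and 0.00174% in Liq replicate 2 (0.00163 to 0.00186). In CPM, the members summed to 22.8 and 21.4 in the controls and 23.3 and 17.0 in the Liq samples. In comparison, 20 genes of replacement histones outside the clusters, whose mRNAs are mostly polyadenylated, had summed values of 1501, 1427, 1245 and 1244 CPM. One gene, HIST1H2BK, gave 41.4% of the 3421 counts on members over the 4 samples, and the 6 members with the most counts gave 72.3%. H2B genes held 63.5% of the counts and the 29 genes of H3 and H4 together 8.16%.

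Of the 72 members, 13 passed the filter on low counts and were tested, 44 had counts but were too low to test, and 15 had none. The tested genes were 8 of H2B, 3 of H2A and 2 of H1, and no gene of H3 or H4 was among them. The members without a count were HIST1H1T, HIST1H2AA, HIST1H2AD, HIST1H2AJ, HIST1H2BA, HIST1H2BM, HIST1H4G, HIST1H4J, HIST2H2AA3, HIST2H2AA4, HIST2H3A, HIST2H3C, HIST2H4A, HIST2H4B and HIST3H3. Where reads can be placed uniquely, a count of 0 allows a level up to the 0.0598 to 0.0844 CPM given above. HIST1H1T and the pair HIST1H2AA and HIST1H2BA are known as testis histones.

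Part of these zeros fell on genes whose reads cannot be assigned to one place. The uniqueness of each member was described by the share of 100-base windows of its main transcript, the read length here, that occur once in GRCh37. Among the 14 members without counts that had a gene model, the median share was 69.1%, and 5 had no unique window at all (HIST2H2AA4, HIST2H3A, HIST2H3C, HIST2H4A and HIST2H4B), all of which belong to the duplicated stretch of the HIST2 cluster. HIST1H4J had 9.31% and HIST1H2AJ 38.2%. The 39 modelled members that had counts but were not tested ranged from 8.68% to 100%, with a median of 100%. The tested members had 77.5% to 100%, with the pseudogene HIST2H2BA not scored. For a gene without unique windows a count of 0 sets no upper limit on its level. The lowest share among tested members was that of HIST1H2BK, the most counted member, whose level is therefore uncertain.

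**Figure D1:**
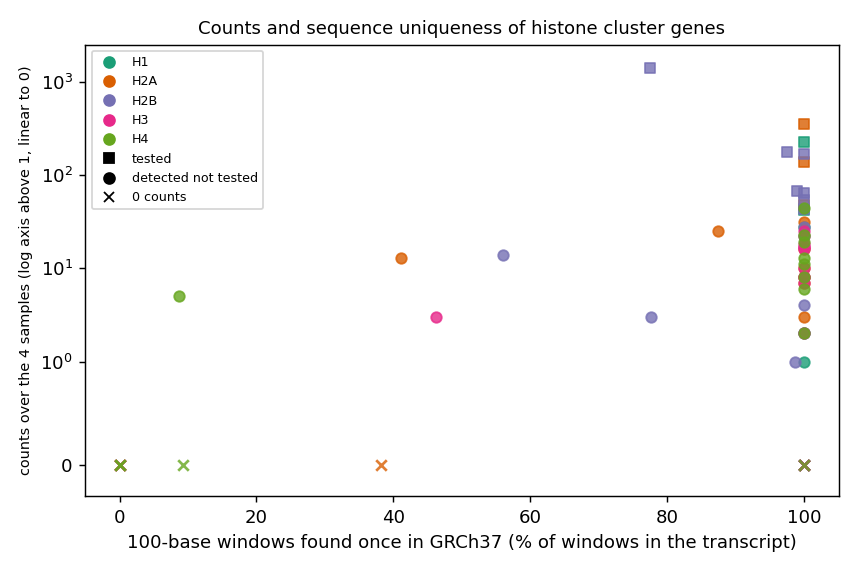
Each point is 1 member with a gene model. The x axis is the share of 100-base windows of its main transcript that occur once in GRCh37, in percent, and the y axis is its counts summed over the 4 samples (log scale above 1, linear down to 0). Colours mark the histone class and shapes mark tested members, members with counts that were not tested, and members with 0 counts; most points sit at 100%, while 5 of the members with 0 counts sit at 0%.

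Annotated transcripts were compared as a description, with no test. The longest annotated transcript exceeded 1000 bases in 5 of 13 tested members, in 6 of 39 members with counts that were not tested and in 3 of 14 without counts, and more than 1 transcript was annotated for 7, 8 and 3 of them. HIST2H2BE has 1 exon of 2224 bases, far beyond its stem-loop. HIST1H2BN, at chr6:27806323-27823487, plus strand, has a transcript of 4137 bases and HIST1H2BC, at chr6:26086545-26124154, minus strand, has one of 2548 bases. All 460 bases of the main HIST1H2BC transcript are also covered on the opposite strand by an exon of an unnamed GENCODE gene. Whether the counting used strand is not given in the sources used here, so reads from the 2 strands cannot be told apart for this gene. No other tested member shared exon bases with another GENCODE gene in its main transcript.

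HIST2H2BE and HIST1H2BC, both genes of core histone H2B, fell with Liq, and none of the 13 tested members was called higher, where 4.29% of all tested genes were. The 2 calls are 15.4% of the 13 tested members, where 6.45% of all 13546 tested genes were called in either direction and 2.16% were called lower at the same thresholds (1.5-fold or more, and adjusted p under 0.05 in edgeR's quasi-likelihood test). Among the 3759 tested genes below the highest member, HIST1H2BK, in mean CPM, 4.02% were called lower and 16% in either direction. The members' share in either direction was near that of this set. HIST1H2BK lay far above the other members, so the set is not matched to their levels. Of the 13 members 9 had a negative log2 fold change, against 49% of all tested genes, and the median was -0.16 against 0.0062 over all tested genes. Both Liq samples lay below both controls in 5 members (30.2% of all tested genes) and above both in 1 (31.5%). Of these, HIST1H1E passed the filter on low counts through the Liq samples, and HIST1H2BC and HIST1H2BN through the controls, each through its higher group. An unadjusted p under 0.05 was reached by 4 of the 13, all lower, against 36.1% of all tested genes, 17.3% lower and 18.8% higher. With the fold minimum, 3 of these 4 remained, against 7.85% of all tested genes, 2.49% lower and 5.37% higher. With 2 samples per group an exact permutation test of 1 gene cannot give a p below 0.3333, so the p-values rest on the spread shared across genes. In these bulk samples, fewer cells that make histone mRNA and less mRNA per cell cannot be told apart.

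**Figure D2:**
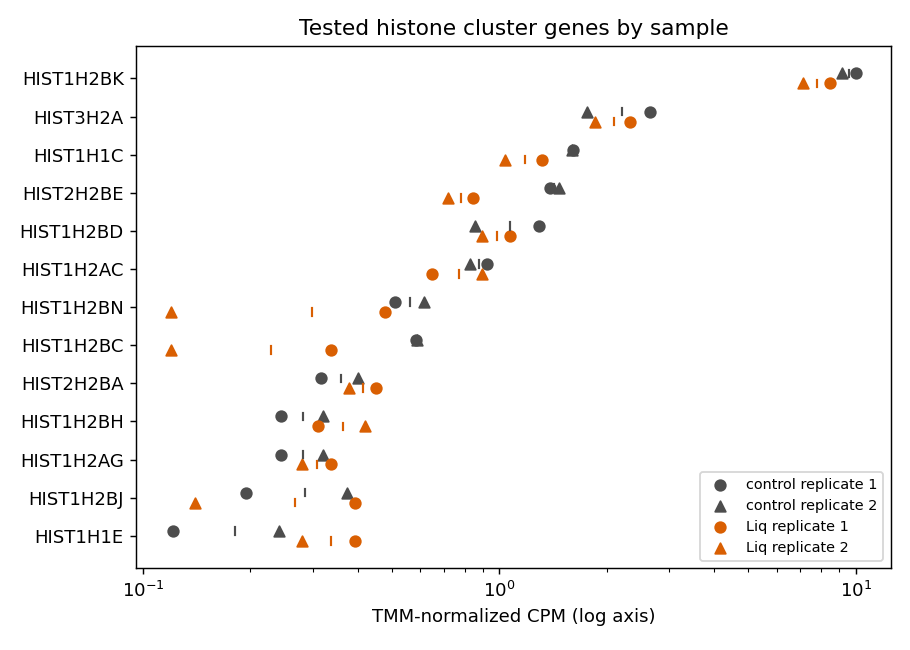
TMM-normalized CPM (log axis) of the 13 tested members in each sample, with circles for replicate 1, triangles for replicate 2 and short vertical lines for the mean of each group (n = 2). HIST2H2BE and HIST1H2BC show both Liq samples well to the left of both controls, and HIST1H2BK, at 7.13 to 10.04 CPM, is the most counted member.

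HIST2H2BE, at chr1:149856009-149858232 on the minus strand, encodes H2B in the HIST2 cluster. It had 57 and 55 counts in the controls and 30 and 36 in the Liq samples. The Liq samples did not overlap the controls. In CPM it was 1.43 ± 0.06 in the control group and 0.780 ± 0.089 in the Liq group (SD, n = 2), giving a log2 fold change of -0.88 (SE 0.26, edgeR adjusted p = 0.01393), which is 1.84-fold lower. The DESeq2 Wald test gave the same size, -0.88, with an adjusted p of 0.1362. The call was also lost without control replicate 1 (edgeR adjusted p = 0.07478), control replicate 2 (0.1074) or Liq replicate 2 (0.08455), and held without Liq replicate 1 (-0.99, adjusted p = 0.01469).

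HIST1H2BC encodes H2B in the HIST1 cluster. Its counts were 24 and 22 in the controls against 12 and 6 with Liq. The controls were close together and the Liq samples were well below them, but differed between each other. Its level was 0.586 ± 0.003 CPM in the control group and 0.228 ± 0.154 CPM in the Liq group (SD, n = 2), giving a log2 fold change of -1.46 (SE 0.45, edgeR adjusted p = 0.01876), or 2.74-fold lower. DESeq2 set its adjusted p to NA as a low-count gene, with an unadjusted p of 0.0555. The edgeR call was lost without control replicate 1 (adjusted p = 0.1053), control replicate 2 (0.09436) or Liq replicate 2, where the log2 fold change was -0.79 (adjusted p = 0.2753). Without Liq replicate 1 the log2 fold change was -2.27. With 6 counts in Liq replicate 2, HIST1H2BC passed the filter on low counts through the controls, where it was higher. It was also called lower with no filter on low counts.

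The other H2B genes did not pass the thresholds. HIST1H2BK, at chr6:27114140-27114634, minus strand, had 413 and 343 counts in the controls and 301 and 358 with Liq, or 9.60 ± 0.62 against 7.80 ± 0.94 CPM (SD, n = 2). In CPM both Liq samples were below both controls, by a log2 fold change of -0.31 (SE 0.12, edgeR adjusted p = 0.06587). The adjusted p was 0.03671 with the replicate number as a block and 0.01015 without Liq replicate 1, but the change stayed below 1.5-fold in each fit tried. HIST1H2BN had 21 and 23 counts against 17 and 6, with a log2 fold change of -1.04 (SE 0.46, edgeR adjusted p = 0.1033). Its log2 fold change was -0.23 without Liq replicate 2, and -2.20 without Liq replicate 1, where it passed the filter on low counts through the controls. HIST1H2BD, with 53, 32, 38 and 45 counts in the same order, overlapped between the groups, with a log2 fold change of -0.15. HIST1H2BJ (-0.18, or -0.99 without Liq replicate 1) and HIST1H2BH (0.40) also overlapped, as did HIST2H2BA (0.20), an H2B pseudogene, and each of these had 7 to 21 counts per sample.

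The 3 tested H2A genes had overlapping groups and log2 fold changes near 0. HIST3H2A, at chr1:228622478-228645574, minus strand, had 109, 66, 83 and 93 counts, in the order control 1, control 2, Liq 1 and Liq 2. The control replicates lay further apart than the group means of 2.21 ± 0.63 and 2.09 ± 0.34 CPM (SD, n = 2), and the log2 fold change was -0.10 (SE 0.21, edgeR adjusted p = 0.7716). HIST1H2AC had 38, 31, 23 and 45 counts and a log2 fold change of -0.16 (adjusted p = 0.7431), and HIST1H2AG had 10 to 14 counts and one of 0.12 (adjusted p = 0.8836). These values do not show that H2A genes were unaffected, since the SE of the log2 fold change of HIST1H2AC alone was 0.29.

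Both tested linker histone genes had groups that did not overlap, in opposite directions, and neither passed the test. Among all tested genes, 30.2% had both Liq samples below both controls and 31.5% above, so lack of overlap was common. HIST1H1C, at chr6:26055968-26056698, minus strand, had 66 and 60 counts in the controls and 47 and 52 with Liq. Its levels were 1.60 ± 0.002 against 1.18 ± 0.20 CPM (SD, n = 2), giving a log2 fold change of -0.46 (SE 0.23, edgeR adjusted p = 0.156), or -0.63 without Liq replicate 1 (0.1021). HIST1H1E, at chr6:26156557-26157343, plus strand, had the highest fold change of the 13 tested members, with 5 and 9 counts against 14 and 14. It passed the filter on low counts through the Liq samples, where it was higher, so this rank and the lack of overlap support nothing. Its log2 fold change was 0.87 (SE 0.52, edgeR adjusted p = 0.2353), or 0.64 without Liq replicate 1 (0.539). The difference between the 2 genes was not tested.

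**Figure D3:**
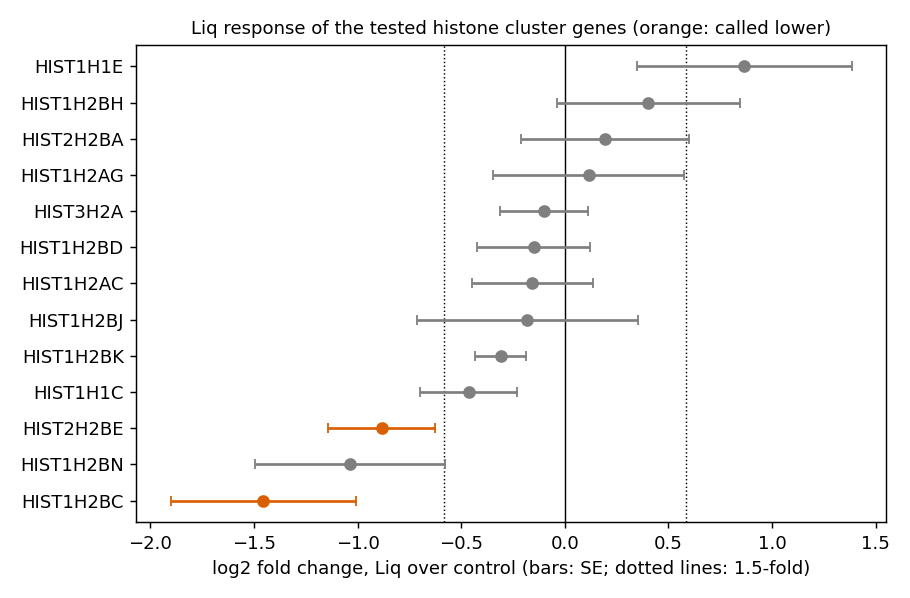
Log2 fold change of Liq over control for the 13 tested members (points) with its standard error (bars). Dotted lines mark 1.5-fold, and the 2 members in orange, HIST2H2BE at -0.88 and HIST1H2BC at -1.46, passed the thresholds.

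The class totals followed different patterns over the libraries. Summed H2B was 15.2 and 14.5 CPM in the controls and 13.4 and 10.6 CPM with Liq, so the Liq samples were below both controls. The sum of all 72 members was 22.8, 21.4, 23.3 and 17.0 CPM, so the groups overlapped and the means of 22.1 ± 0.99 and 20.2 ± 4.49 CPM (SD, n = 2) differed by a log2 ratio of -0.13, or -0.38 without Liq replicate 1. H1 summed to 1.85, 2.03, 2.00 and 1.49 CPM and H2A to 4.57, 3.61, 4.72 and 3.59 CPM. H3 summed to 0.559, 0.508, 1.57 and 0.658 CPM and H4 to 0.608, 0.775, 1.69 and 0.677 CPM, with Liq replicate 1 far above the other 3 libraries in both. Without HIST1H2BK, the sum of the other 71 members was 12.7, 12.2, 14.9 and 9.86 CPM.

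The members too low to test moved with 1 library. The 59 untested members summed to 2.68 and 2.86 CPM in the controls, 5.96 CPM in Liq replicate 1 and 2.73 CPM in Liq replicate 2. Of the 44 with counts, 28 had their highest CPM in Liq replicate 1, and among the 22 of H3 and H4 it was 15. The share was 63.6% of these members, against 34.2% of the 3684 other genes that had counts but were not tested. A member high in 1 library alone falls short of the filter and so belongs to this group by construction. This is the library in which RMRP and RPPH1 were also highest. Outside Liq replicate 1 the sum lay in a narrow range across both groups. Single genes had few counts, and 26 of the 59 had 5 or fewer over all 4 samples.

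HIST1H4E, a gene of H4, had 5, 7, 25 and 7 counts, the highest of an untested member in any sample. HIST1H3B, a gene of H3, had 4, 3, 13 and 5, and HIST1H2AM, a gene of H2A, had 3, 5, 14 and 9. HIST1H3F had counts in Liq replicate 1 alone, where there were 7. These genes were picked after their values had been seen. With Liq replicate 1 as the only Liq sample, edgeR tested 18 members and called 3 higher, HIST1H4E, HIST1H3B and HIST1H2AM, and none lower. These 3 passed the filter on low counts through that library, in which they were high, so their calls support nothing. With Liq replicate 2 as the only Liq sample, the log2 fold change was -0.99 for HIST2H2BE, -2.27 for HIST1H2BC and -2.20 for HIST1H2BN. The last 2 had 6 counts each in that library. They passed the filter through the controls, in which they were high, so these 2 values support nothing.

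**Figure D4:**
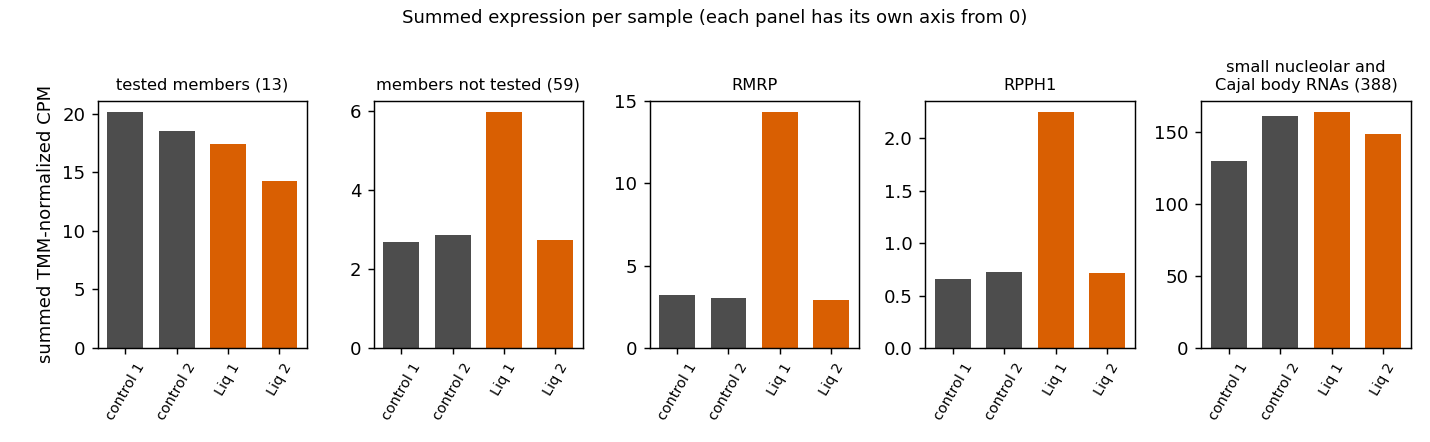
Summed TMM-normalized CPM in each sample for tested members (13), untested members (59), RMRP, RPPH1 and 388 small nucleolar and Cajal body RNAs. Each panel has its own axis starting at 0. Liq replicate 1 is the tallest bar for untested members (5.96 CPM), RMRP (14.3 CPM) and RPPH1 (2.25 CPM), while the tested members are lowest in Liq replicate 2 (14.3 CPM).

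Many cluster genes sit in divergent pairs, where an H2A and an H2B gene are transcribed away from a shared stretch of DNA. Among members with a gene model, 10 such pairs had start sites 194 to 251 bases apart, and all joined H2A with H2B. In 2 pairs both genes were tested. HIST1H2BC and HIST1H2AC start 246 bases apart and had log2 fold changes of -1.46 and -0.16. HIST1H2BJ and HIST1H2AG start 248 bases apart and had -0.18 and 0.12. The partner of HIST2H2BE is HIST2H2AC, 236 bases away, and that of HIST1H2BK is HIST1H2AH, 251 bases away, which had 25 and 16 counts over the 4 samples and were not tested. The difference within a pair was not tested.

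The promoters of the 2 genes that fell and of HIST1H2BK are shown because these 3 H2B genes are the calls and the most counted member. Each runs from 250 bases before to 50 bases after the gene start, in the sense of the gene, as given by RefSeq for GRCh38.p14. Capitals mark the TATA box, searched as TATAAA, the CCAAT box, and the core of the octamer element, searched as ATTTGCA. Each motif was searched on both strands, so its reverse complement is in capitals too, and in HIST1H2BK the reverse and forward forms of the TATA box overlap at one place. The regions are chr1:149886633-149886932 for HIST2H2BE, chr6:26123877-26124176 for HIST1H2BC and chr6:27146809-27147108 for HIST1H2BK, all on the minus strand.
HIST2H2BE: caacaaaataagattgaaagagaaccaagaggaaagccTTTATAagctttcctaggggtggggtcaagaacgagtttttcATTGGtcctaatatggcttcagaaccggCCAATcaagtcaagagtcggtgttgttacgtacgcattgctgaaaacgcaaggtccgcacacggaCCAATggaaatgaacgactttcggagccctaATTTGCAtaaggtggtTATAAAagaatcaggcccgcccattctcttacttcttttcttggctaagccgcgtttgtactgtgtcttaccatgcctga
HIST1H2BC: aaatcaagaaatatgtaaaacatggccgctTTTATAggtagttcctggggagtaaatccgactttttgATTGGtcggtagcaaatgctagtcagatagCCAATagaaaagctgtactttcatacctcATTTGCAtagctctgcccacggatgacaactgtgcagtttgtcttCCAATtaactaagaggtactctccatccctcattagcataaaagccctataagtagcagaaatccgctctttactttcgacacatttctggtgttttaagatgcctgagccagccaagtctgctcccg
HIST1H2BK: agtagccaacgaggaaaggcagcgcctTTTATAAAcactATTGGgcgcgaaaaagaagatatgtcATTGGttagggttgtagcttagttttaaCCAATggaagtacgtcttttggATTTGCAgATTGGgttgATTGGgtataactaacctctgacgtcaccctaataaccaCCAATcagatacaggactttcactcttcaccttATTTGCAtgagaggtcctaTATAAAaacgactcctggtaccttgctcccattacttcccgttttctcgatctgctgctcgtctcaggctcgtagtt

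The octamer core was frequent in the promoters of H2B and H2A. It was found in 14 of 18 H2B promoters (77.8%), 11 of 16 of H2A, 2 of 12 of H3 and none of H1 or H4. Among 27305 promoters of all genes the share was 4.23%. Of the 2 H3 matches, that of HIST1H3C lay 22 bases after the start. The window of HIST1H3D had its octamer core and CCAAT boxes at the same positions as that of HIST1H2AD, so this match may not be separate. Divergent pairs start 194 to 251 bases apart, so the windows of both partners overlap and a shared site is counted for each. The octamer cores of HIST2H2BE and HIST2H2AC are the same site, as are those of HIST1H2BC and HIST1H2AC and of HIST1H2BJ and HIST1H2AG. The same holds for HIST1H2AA and HIST1H2BA, for HIST1H2AJ and HIST1H2BM, and for HIST1H2AM and HIST1H2BO. The H2A and H2B shares are therefore not separate observations, and sites of CCAAT and TATAAA can be shared likewise. CCAAT was found in all 6 H1, 16 H2A, 18 H2B and 12 H3 promoters and in 3 of 13 of H4, with 35.7% among all promoters. TATAAA was found in 43 of the 65 members with a promoter (66.2%) against 12% of all. HIST2H2BE and HIST1H2BK have a TATAAA 30 and 27 bases before the start and an octamer core 46 bases before it. In HIST1H2BC the only octamer core was 123 bases before the start. The only TATA match lay 220 bases before it, as the reverse complement, and is the TATAAA 31 bases before the start of HIST1H2AC. No TATAAA was found in the direction of HIST1H2BC itself. A match is a description of the letters in this window, and binding was not measured.

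No gene of the replacement histones or of 3 further lists of histone biology passed both thresholds, where 6.45% of all tested genes did. DESeq2 called none in these lists either. The lists were compiled from general knowledge. An unadjusted p under 0.05 was reached by 36.1% of all tested genes. It was reached by 5 of 10 tested replacement histones and 5 of 25 genes of histone mRNA transcription, processing and decay. It was also reached by 6 of 21 histone chaperones and importers and 7 of 25 DNA replication genes. An adjusted p under 0.05 without a minimum fold change was reached by 24% of all tested genes. In the replacement histones it was reached by 3 (30%), all lower, in mRNA processing by 3 (12%), all lower, in the chaperones by 4 (19.0%), with 3 lower and 1 higher, and in DNA replication by 5 (20%), with 1 lower and 4 higher. The list medians of the log2 fold change were -0.13, -0.05, -0.03 and -0.06 in that order.

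The replacement histones with the smallest p were lower with Liq. H3F3B, which encodes H3.3, was at 515 ± 9 CPM in the control group and 388 ± 6 CPM in the Liq group (SD, n = 2), with a log2 fold change of -0.41 (SE 0.06, edgeR adjusted p = 2.8e-05). H1F0, the linker histone of resting cells, was at 93.5 ± 6.0 against 68.4 ± 0.8 CPM, with -0.45 (SE 0.08, adjusted p = 0.00011). H2AFX, whose product marks DNA breaks when phosphorylated and whose mRNA also holds a stem-loop site, had a log2 fold change of 0.03 (adjusted p = 0.8189), and H2AFZ one of -0.18 (adjusted p = 0.0674). H3F3A, the other gene of H3.3, was listed at 0 in all samples. Reads with more than 1 alignment were left out and its uniqueness was not scored, so this 0 does not show that it was silent.

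Among genes that act on histone mRNA, SLBP, the stem-loop-binding protein, was at 517 ± 7 and 500 ± 25 CPM in the control and Liq groups (SD, n = 2), with a log2 fold change of -0.05 (SE 0.06, edgeR adjusted p = 0.6317). NPAT, the coactivator of cluster gene transcription, was at 31.2 ± 0.5 and 31.9 ± 1.4 CPM, with 0.03 (SE 0.09, adjusted p = 0.8277). The smallest p belonged to CCNE2, cyclin E2, which drives entry into S phase (-0.36, adjusted p = 0.004569), and to CSTF2, a cleavage factor subunit (-0.29, adjusted p = 0.01783). Both were lower by less than 1.5-fold.

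Among histone chaperones and importers, IPO4, an importin that carries histones, had a log2 fold change of -0.43 (SE 0.08, edgeR adjusted p = 0.0003) and SSRP1, a subunit of the FACT complex, one of -0.30 (SE 0.06, adjusted p = 0.001184). Among replication genes RRM2, the small subunit of ribonucleotide reductase, was at 361 ± 13 CPM in the control group and 259 ± 16 CPM in the Liq group (SD, n = 2), giving a log2 fold change of -0.48 (SE 0.07, edgeR adjusted p = 8.7e-06). TK1, thymidine kinase, moved the other way, from 61.4 ± 6.0 to 79.0 ± 4.6 CPM, with 0.36 (SE 0.08, adjusted p = 0.0023).

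**Figure D5:**
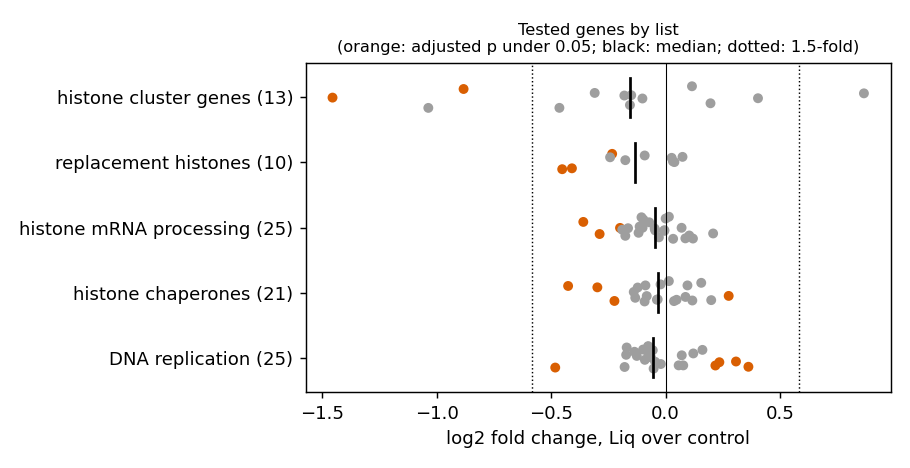
Log2 fold change of Liq over control for each tested gene (points) of the histone cluster members and of 4 lists, with the number of tested genes in brackets. Orange points had an adjusted p under 0.05, black bars are list medians and dotted lines mark 1.5-fold; the 2 orange points beyond the left dotted line are HIST1H2BC and HIST2H2BE, and vertical spread within a list has no meaning.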

How the data were processed

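RNA-seq of ES2 cells treated with vehicle or Liq was analysed, with 2 samples per group taken from the sample titles. The authors aligned 100-base single-end reads to hg19 with TopHat2 2.0.8b, counted reads per gene with HTSeq (version, strand setting and annotation release are not given in the sources used here) and deposited raw counts per gene, which were not normalized. HTSeq left out reads with more than 1 alignment. Its tally lines held 44.4% to 45.9% of everything counted or tallied and were left out of library sizes and tests.

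Counts were fitted with edgeR 4.0.16 in R 4.3.3 over all genes that passed filterByExpr (minimum count 10, total 15), 13546 of 23228, with TMM normalization, glmQLFit and glmQLFTest, without a block, and Benjamini-Hochberg adjustment over all tested genes. The SE is the log2 fold change divided by the square root of F. The fits were tested on simulated data. The genes changed there all had a higher mean count than HIST1H2BC, so calls at its level were not covered. Genes were called at 1.5-fold and an adjusted p under 0.05. The study used DESeq with the same fold and did not say whether p was adjusted. Alternatives were other normalizations, filters, DESeq2 1.42.0, the unadjusted p, no fold minimum, a replicate block and leaving out each sample. Deviations of same-numbered samples had a correlation of 0.0483.

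The members and lists were chosen with earlier results of these data known. The genes named were members called, in each class the 2 tested genes with most CPM and the one with the smallest p, the extremes of fold change and, in each list, the 2 genes with the smallest p. The other genes were named after their values were seen, and so were the stem-loop, uniqueness, pair and promoter descriptions. All 72 members matched RefSeq symbols and 66 matched GENCODE v44 lifted to GRCh37. HIST1H2BF, HIST1H2BG, HIST1H4B, HIST1H4F, HIST2H2AA3 and HIST2H2BC had no gene model.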

Additional observations from a re-analysis of the deposited data

How the results depend on the processing

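The number of members called changed was 2, both lower, with no filter on low counts, upper-quartile normalization, size factors of DESeq2, no fold minimum or the replicate block. It was 3 with the unadjusted p, 4 (all lower) with loess offsets, 1 with a minimum of 10 counts in each sample and 0 with DESeq2, where HIST1H2BC had no adjusted p. Of 13546 tested genes, the main fit called 874 (293 lower), loess offsets 744 (394 lower) and DESeq2 567 (226 lower). The unadjusted p called 1064 (337 lower), and the minimum of 10 counts called 798 of 13115 (266 lower). Calls were 875 with size factors of DESeq2, 888 with upper-quartile normalization and 898 with the block. They were 903 of 17274 without the filter and 3245 with no fold minimum. Leaving out 1 sample each gave 0 to 3 members called, 0 to 3 lower and 0 to 3 higher, so no call of a member held in every such fit. These fits leave an arm with 1 sample, which is assumed to vary like the others, and test 13 to 20 members. The paired fit, the replicate block, called 2 members and changed no call, and the replicate numbers were not shown to pair the samples. The median log2 fold change of tested members, -0.16, was -0.38 with loess offsets and 0.41 without the filter, where 57 members were fitted, and ranged from -0.27 to 0.33 when a sample was left out. The log2 ratio of summed CPM, -0.13, ranged from -0.38 (without Liq replicate 1) to 0.078 (without Liq replicate 2). No such ratio is given for loess offsets, which vary by gene. Without a fold minimum, the 4 lists had 3 replacement histones, 3 mRNA processing genes, 4 chaperones and 5 DNA replication genes changed. HIST3H2A ranged from -0.36 to 0.23 when a sample was left out, turning positive without control replicate 1 and, at 0.07, without Liq replicate 2. HIST1H2AC ranged from -0.44 to 0.030, turning positive without Liq replicate 1. HIST1H1C was called with loess offsets (-0.67, edgeR adjusted p = 0.04078). HIST1H2BC has no value under the minimum of 10 counts. Of the 161 alternative values of the 15 named genes, 150 kept their direction and their status as called or not called, which needs both thresholds. The adjusted p alone crossed 0.05 in some fits, reaching 0.01015 for HIST1H2BK and, with a control left out, 0.1202 for CCNE2, 0.1929 for CSTF2, 0.171 for TK1 and 0.05359 for IPO4. Low counts limit most members, and the cause of these changes was not tested.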
